A study of Nematostella vectensis with 15 samples.

Results

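The very long genes described here are 132 of the 27527 gene models that the authors deposited for the starlet sea anemone *Nematostella vectensis*. They were chosen by the origin and structure of the model. The rule took models of JGI origin with at least 2 exons and a span of at least 30000 bp from the first to the last base. No model could overlap them on the opposite strand. Of the 13210 JGI models that met the exon and strand conditions, 8103 spanned under 5 kb, 3381 spanned 5 to 10 kb, 1594 spanned 10 to 30 kb, and 132 spanned 30 kb and over. Expression was measured in 15 RNA-seq libraries from the mesenteric body portion of adults kept at 16‰ salinity, with 5 libraries for each culture temperature of 15, 20, or 25 °C. All polyps descended from a cross of the CH2 and CH6 animals, as the F1 generation, and the libraries were stranded and made from polyadenylated RNA. The labels do not say whether the 5 libraries of a temperature came from separate animals, so p-values measure the spread between these libraries.

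An intron is the stretch of a gene that is transcribed and then spliced out, so that the mature mRNA carries the exons only. Long genes of animals are mostly long because of their introns, and a polymerase has to cross the whole span before the transcript is complete. Counts on genes in polyadenylated RNA come mainly from exons, so the span of a gene adds little to its count. The mesenteries are the inner folds of the anemone's body column, which carry digestive and gland cells, muscle, and the gonads. Since the tissue was measured in bulk, fewer cells of a type and less RNA per cell cannot be told apart. None of the 27527 gene identifiers paired with a gene name in the reference table used here, so the genes are described by position and structure and not by function.

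Library totals ran from 3526175 to 22160961 counts, and the median total was lowest at 15 °C (7727786) and highest at 20 °C (14234219), with 11095025 at 25 °C. The 132 genes lay on 119 scaffolds, 75 on the plus and 57 on the minus strand. Of these scaffolds, 10 held more than 1 of the genes, and scaffold 102 held 4. The rule takes in a minor part of the long models of the annotation. In all, 544 models spanned 30 kb or more, but 409 of them were transcripts assembled by TACO, of which 369 named a JGI gene as their target and stood in its place. No JGI gene named as a target was also present as a JGI model, so the 132 are long JGI models that no such transcript replaced. How this affected the levels of the 132 was not tested. A further 3 JGI models of 38396, 30936, and 51660 bp were left out for an overlap on the opposite strand. The models nearest to the limit were 2 of 29871 and 29899 bp just outside it, with 13.3 and 29.2 RPKM (counts divided by the exon length and the library total, here the mean of 15 libraries), and 2 of 30241 and 30251 bp just inside it, with 10.6 and 49.7 RPKM.

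The median span of the long genes was 36276.5 bp, from 30241 to 97791 bp. Introns made up a median of 90.8% of the span, against 86.4% in the genes of 10 to 30 kb. The median gene had 23.5 exons (2 to 103) with a summed length of 3491 bp, against 12 exons in the genes of 10 to 30 kb. The size of a typical intron was nearly the same in both classes, with a median of 557.75 bp for the middle intron of a gene against 547 bp, and so was that of a typical exon, with 124.75 against 118.5 bp. What differed was the number of introns and the length of the longest, which had a median of 11304.5 bp in the long genes and 3936 bp in the genes of 10 to 30 kb.

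The long genes ran from many exons spread over the span to few exons around a single very long intron, and they were split at 50% of the span for description. In 85 of them no intron exceeded 50% of the span, and these had a median of 34 exons, 5223 bp of exon sequence, and a longest intron of 5707 bp. In the other 47 (35.6%) an intron took more than 50% of the span, and these had a median of 3 exons, 1140 bp of exon sequence, and a longest intron of 32730 bp. Such a dominant intron was present in 342 of the 1594 genes of 10 to 30 kb (21.5%). It was the first intron in 26 of the 47 long genes that had one, but 16 of these had 2 exons and so no other intron, which leaves 10 of 31. In the 85 others, all of more than 2 exons, the longest was the first in 3. The plot of exon number against the share of the longest intron shows a continuous range between both ends, with no gap at 50%.

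**Figure D1:**
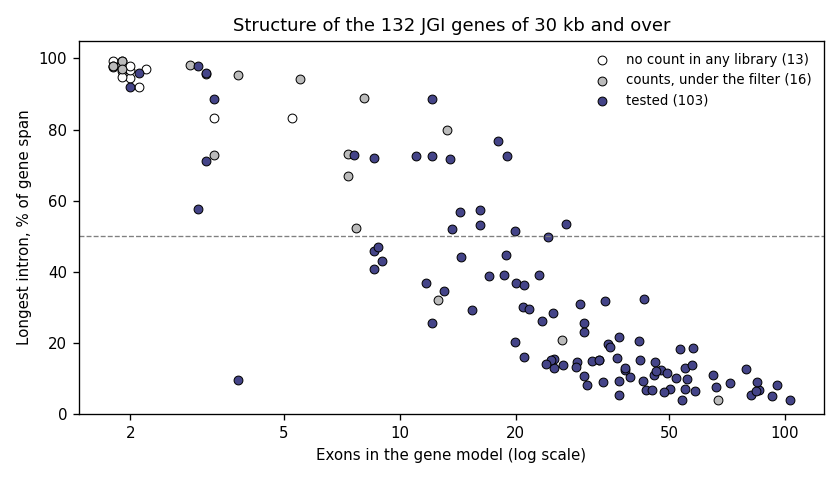
Number of exons (log scale) against the share of the gene span taken by the longest intron, 1 point for each of the 132 genes, with the dashed line at 50% and points shifted slightly sideways so that fewer overlap. Open points mark the 13 genes without a count in the 15 libraries, which all lie above the line and have at most 5 exons.

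The longest gene lay on scaffold 214 (5056 to 102846, plus strand) and had 90 exons over 97791 bp, with no intron above 6725 bp. The third longest, on scaffold 222 (174983 to 247686, plus strand), had the most exons, 103 over 72704 bp. The longest intron, of 48615 bp, was the only intron of a gene on scaffold 30 (45408 to 94400, minus strand) whose 2 exons summed to 0.378 kb. The next were an intron of 42674 bp in a gene of 3 exons on scaffold 117 (438886 to 482498, plus strand) and the first intron, of 39254 bp, in a gene of 5 exons on scaffold 804 that began at position 1 of its scaffold. An exception to the high intron content was a gene of 4 exons on scaffold 168 (470717 to 511545, plus strand). Its exons summed to 33.62 kb, of which 32.84 kb were annotated as 5′ untranslated, and introns made up 17.7% of its span. In most models no untranslated region was annotated: 18 of the 132 had one at the 5′ end and 30 at the 3′ end.

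The 132 long genes were expressed (RPKM above 0) in 115.2 ± 1.32 cases per library (mean ± SD, n = 15), from 112 to 117, and 100.3 ± 0.900 of them reached 1 RPKM. The mean share expressed was 87.3% of the long genes and 80.5% of all models. It was 79.8% under 5 kb, 91.2% at 5 to 10 kb, and 92.9% at 10 to 30 kb. Counts were present in every library for 110 genes. Their median level over all 132 was 8.40 ± 1.14 RPKM (SD, n = 15), close to the 8.22 ± 0.608 RPKM of the genes of 10 to 30 kb. The median of the long genes was above that of genes under 5 kb in 15 of 15 libraries, above that of genes of 5 to 10 kb in 10, and above that of genes of 10 to 30 kb in 7. It was 8.87 ± 1.78 RPKM in the 5 libraries at 15 °C, 8.22 ± 0.462 in those at 20 °C, and 8.10 ± 0.851 in those at 25 °C, and the temperatures overlapped. The 15 °C libraries were the most uneven. Their medians were 10.5, 10.1, 7.35, 6.58, and 9.75 RPKM for replicates 1 to 5, and the low pair, replicates 3 and 4, was also lowest at 15 °C for the other span classes.

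The level differed with the form of the gene, and a dominant intron went together with few exons (a median of 3, against 34 in the genes without one). The 85 genes without a dominant intron had a median of 10.5 ± 1.15 RPKM (SD, n = 15 libraries), and the 47 with one had 0.662 ± 0.191 RPKM, lower in 15 of 15 libraries. Arranged by exon number, the median of the mean RPKM was 0.0766 for the 25 genes of 2 to 3 exons, 0.997 for the 15 genes of 4 to 10 exons, 10.7 for the 24 genes of 11 to 20 exons, 10.8 for the 34 genes of 21 to 40 exons, and 10.8 for the 34 genes of 41 exons and over. The median thus increased up to the genes of 11 to 20 exons and was nearly level beyond them. Across the 132 genes, Spearman's correlation with mean RPKM was 0.43 for exon number, −0.41 for the share of the longest intron, and 0.05 for span; these are correlations across genes, which share the libraries and are not independent replicates. The genes of 10 to 30 kb showed a smaller gap in the same direction, with 9.42 RPKM in the 1252 without a dominant intron and 4.03 RPKM in the 342 with one.

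No count in any library was found for 13 long genes (9.85%), against 10.6% of all models. All 13 had a dominant intron and at most 5 exons. The genes on scaffolds 804 and 1203 among these began at position 1, and that on scaffold 799 at position 8087. Those on scaffolds 1161, 975, and 979 began at positions 21, 263, and 683, and the starts of the rest are not listed here. Levels by distance from a scaffold end were not compared. A count of 0 over all libraries allows up to 0.0176 CPM (a count scaled to the library total), from counting error only. A further 16 had counts but too few for the test between temperatures. Among them was the second longest gene, on scaffold 15 (940125 to 1017692, minus strand), with 12 exons over 77568 bp. Its counts summed to 7 over the 15 libraries, with at most 2 in any library. Another was the gene with the longest intron, which had between 1 and 18 counts in each library and a mean of 1.44 RPKM.

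A dominant intron did not exclude a high level. The highest level of all was that of a gene of 3 exons on scaffold 318 (21279 to 64876, minus strand), with an intron of 25092 bp and 456 RPKM on average. Its CPM for replicates 1 to 5 were 371, 436, 294, 738, and 284 at 15 °C, 551, 591, 1047, 311, and 1214 at 20 °C, and 1000, 357, 415, 273, and 706 at 25 °C. The libraries of each temperature thus spread over more than the gap between temperatures, and no comparison of this gene passed the test. Next came a gene of 3 exons on scaffold 86 (402151 to 436596, plus strand; 139 RPKM), a gene of 14 exons on scaffold 344 (102771 to 145469, minus strand; 130 RPKM), a gene of 30 exons on scaffold 203 (24724 to 56179, plus strand; 81.8 RPKM), and a gene of 56 exons on scaffold 3 (1109694 to 1156467, minus strand; 73.3 RPKM).

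**Figure D2:**
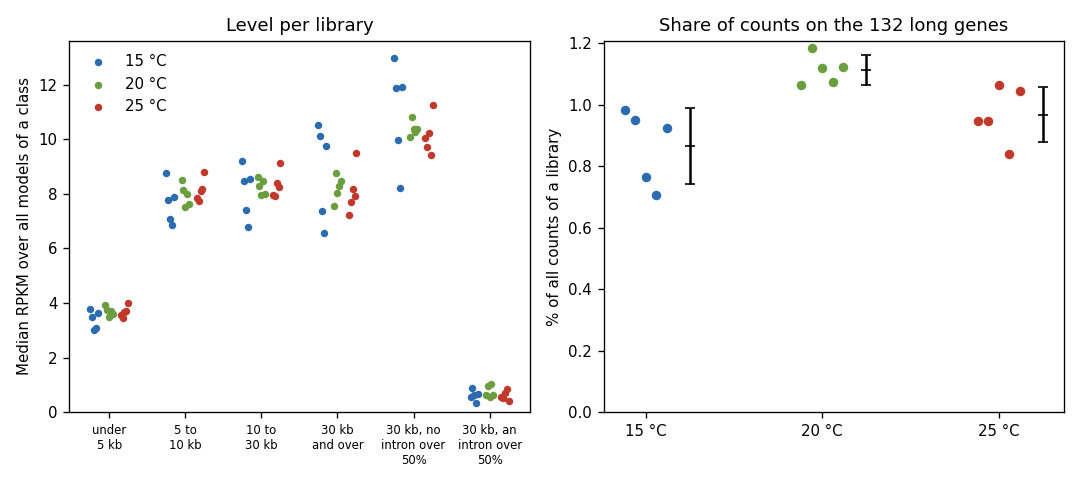
Left, the median RPKM over all models of each span class, and over the long genes split by the presence of an intron over 50% of the span, 1 point per library and colour for temperature. Right, the percentage of all counts that fell on the 132 long genes per library, with bars for the mean and SD of the 5 libraries; the 20 °C libraries (1.06% to 1.18%) all lie above the 15 °C libraries (0.706% to 0.982%).

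The long genes together took 0.982% ± 0.135 of the counts (SD, n = 15). The mean share (n = 5) was 0.865% ± 0.122 at 15 °C and 1.11% ± 0.0477 at 20 °C, and it was 0.968% ± 0.0907 at 25 °C. The 20 °C libraries lay above all the others, by a margin of only 1.0645% against 1.0643% over those at 25 °C, and the 25 °C libraries overlapped with those at 15 °C. A small number of genes carried much of it, since the top 10 in a library took 37.2% to 54.9% of the counts on long genes. Without the 3 genes that rose most between 15 and 20 °C, a comparison chosen after seeing the data, the share was 0.787% ± 0.112 at 15 °C, 0.859% ± 0.0334 at 20 °C and 0.750% ± 0.0670 at 25 °C, and all the temperatures overlapped. Those 3 genes took 8.68% to 9.44% of the counts on long genes at 15 °C and 19.9% to 27.4% at 20 °C.

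Levels at the 3 temperatures were compared in a single fit with edgeR's quasi-likelihood test over all genes, and a gene was called where its p, adjusted by the method of Benjamini and Hochberg, was under 0.05. The filter on low counts kept 103 of the 132 long genes, which were 82 of the 85 without and 21 of the 47 with a dominant intron, and 17818 genes in all. The long genes that passed were well measured, with a median average log2 CPM of 5.67 against 3.54 for all genes tested. Their median biological coefficient of variation, the spread between libraries of a temperature beyond counting error, was 0.129, the same as in the genes of 10 to 30 kb and near the 0.142 of all genes.

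Between 25 and 15 °C, 37 of the 103 long genes (35.9%) were called, against 31.7% of all genes tested and 35.9% of the genes of 10 to 30 kb. Higher levels at 25 °C were called for 11 of the long genes (10.7%) and lower levels for 26 (25.2%). The shares over all genes were 15.0% and 16.7%, and those in the genes of 10 to 30 kb were 13.3% and 22.6%. The median log2 fold change of the long genes was −0.14, with quartiles of −0.34 and 0.12, against 0.0047 for all genes. Of the 103 long genes tested, 4 were called with a log2 fold change of at least 1, 2 in each direction, against 7.01% of all genes tested. In 22 long genes the 5 libraries at 25 °C did not overlap with the 5 at 15 °C (8 higher and 14 lower), against 19.6% of all genes.

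The split by direction depended on whether exon length was adjusted for. With an offset for the trend of each library with exon length, 19 long genes were called higher and 21 lower. Such an offset takes out any difference between libraries that follows exon length, so part of this shift was built into it. The source of the trend with exon length was not tested. Over all 17818 genes tested, 2838 were called higher and 2834 lower with the offset. The median log2 fold change was then −0.06 for the long genes against 0.02 for all genes. Without that offset the median fell from one span class to the next, from 0.06 in genes under 5 kb to 0.01 in genes of 5 to 10 kb, −0.06 in genes of 10 to 30 kb, and −0.14 in the long genes; with it the medians were 0.05, 0.01, −0.04, and −0.06. Among the 103 long genes themselves the change did not follow span (Spearman's correlation across genes −0.04) or exon number (−0.10).

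**Figure D3:**
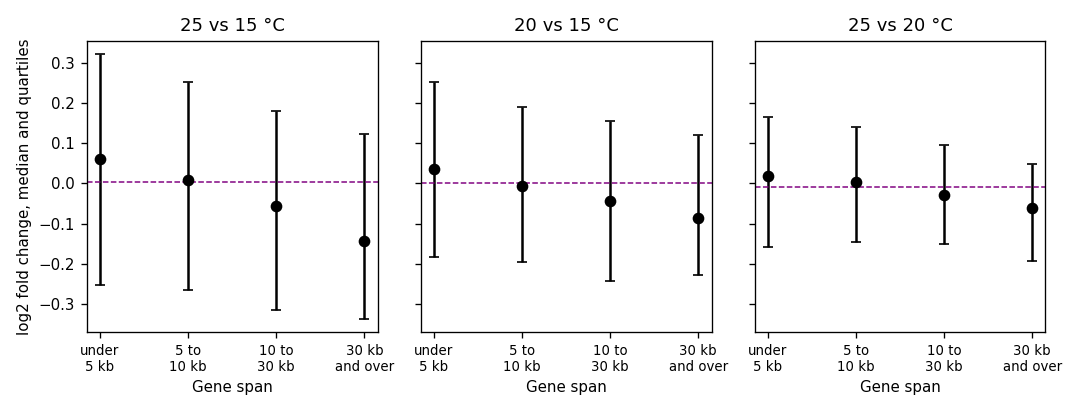
Median log2 fold change of the genes tested in each span class, with bars from the lower to the upper quartile and the median of all genes tested as a dashed line, for the 3 comparisons. The medians for 25 vs 15 °C go from 0.06 under 5 kb to −0.14 at 30 kb and over.

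By form, 7 of the 82 tested genes without a dominant intron were higher (8.54%) and 22 lower (26.8%) at 25 °C, and 4 of the 21 with one were higher (19.0%) and 4 lower (19.0%), beside 15.0% and 16.7% of all genes. By exon number, 3 of the 7 tested genes of 2 to 3 exons were higher and 1 lower, 0 of 8 genes of 4 to 10 exons were higher and 3 lower, 3 of 22 genes of 11 to 20 exons were higher and 3 lower, 1 of 33 genes of 21 to 40 exons was higher and 10 lower, and 4 of 33 genes of 41 exons and over were higher and 9 lower. Differences between forms or exon classes were not tested.

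Between 20 and 15 °C, 21 long genes (20.4%) were called, 10 higher and 11 lower at 20 °C, against 18.8% of all genes tested (9.66% higher and 9.11% lower). In the genes of 10 to 30 kb, 22.7% were called (10.2% higher and 12.5% lower). Without replicate 4 at 15 °C, 10 of the long genes were higher and 19 lower, and without any other single library 8 or 9 were lower. Over all genes tested, 20.6% were called without that replicate, and 15.2% to 18.1% without any other single library. The median log2 fold change was −0.09 against 0.0018 for all genes. No overlap between the libraries was found for 19 (10 higher and 9 lower), against 13.0% of all genes. A call with a log2 fold change of at least 1 in either direction was made for 3 of the 103 tested, against 4.42% of all genes. Between 25 and 20 °C, 8 long genes (7.77%) were called, 3 higher and 5 lower at 25 °C, against 3.68% of all genes (1.14% higher and 2.54% lower). In the genes of 10 to 30 kb, 3.03% were called. The median of the long genes was −0.06 against −0.0083 for all genes. With the offset on exon length, 3 were called higher and 1 lower, beside 273 higher and 366 lower of all 17818 genes tested. The medians were then −0.00078 for the long genes and 0.0296 for all genes. No overlap was found for 8 (1 higher and 7 lower), against 5.99% of all genes. None of the 103 was called with a log2 fold change of at least 1 in either direction (the highest was 0.9998), against 0.993% of all genes. None of the 21 tested genes with a dominant intron was called in this comparison by edgeR, and none had an unadjusted p under 0.05. The number of long genes called between 25 and 20 °C fell when a single library was left out. So did the share of all genes tested, from 3.68% to between 2.23% and 3.26%. Of the long genes, 2 were called without replicate 5 at 20 °C or replicate 4 at 25 °C, and 3 without replicate 2 or 5 at 25 °C. There were 4 without replicate 4 at 20 °C or replicate 3 at 25 °C, and 5 without replicate 1 or 3 at 20 °C. The 3 comparisons share libraries and are given side by side.

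**Figure D4:**
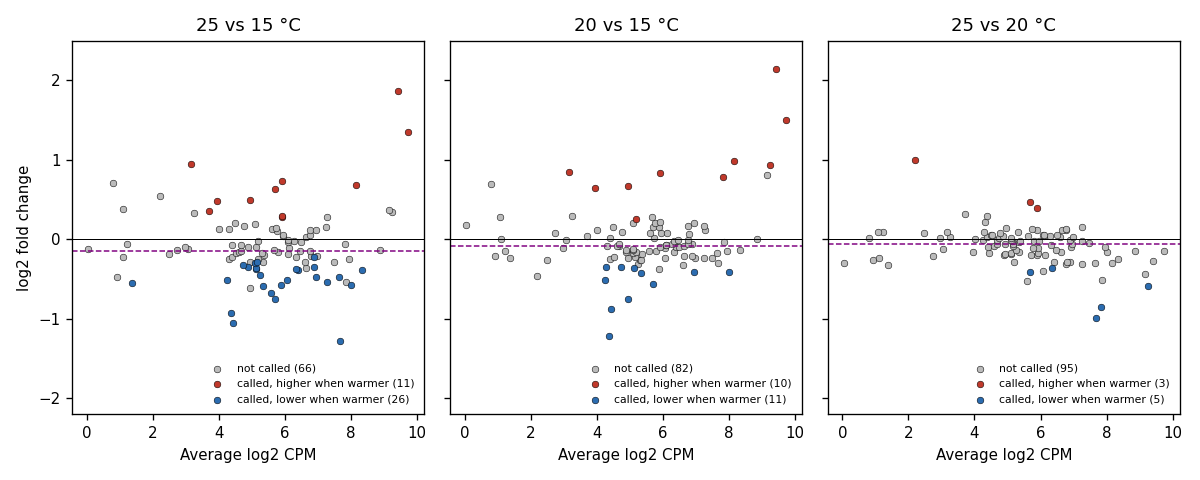
Log2 fold change against average log2 CPM for the 103 long genes tested, in each of the 3 comparisons, with genes called higher at the warmer temperature in red, those called lower in blue, the others in grey, and the median of the 103 as a dashed line. The 11 genes called higher and the 26 called lower at 25 vs 15 °C lie on both sides of a median of −0.14, and the 2 largest rises are among the most highly expressed long genes.

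The largest rise was that of NEMVEDRAFT_v1g199235, a gene of 11 exons with 14.265 kb of exon sequence on scaffold 13 (1806147 to 1838103, plus strand). In replicates 1 to 5 the CPM were 232, 237, 240, 208, and 215 at 15 °C, 987, 1302, 808, 941, and 948 at 20 °C, and 676, 939, 1176, 689, and 650 at 25 °C. All 10 warmer libraries lay above all 5 libraries at 15 °C, and those at 20 and 25 °C overlapped. The level was 4.40-fold higher at 20 than at 15 °C (log2 fold change 2.14, SE 0.166, edgeR adjusted p = 3.09e-08) and 3.64-fold higher at 25 than at 15 °C (1.87, SE 0.164, adjusted p = 1.38e-07), with no call between 25 and 20 °C (−0.27, adjusted p = 0.405). Its first 264 bp overlapped the end of a model of 4 exons on the same strand (1797263 to 1806410). That neighbour rose by 2.01 on the log2 scale at 20 °C and by 1.76 at 25 °C, and whether both models belong to a single gene was not tested; fragments in the overlap cannot be told apart.

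The second rise was on scaffold 15, where 2 long genes followed each other on the plus strand with 22.862 kb and no other model between them. The first, NEMVEDRAFT_v1g239505 (1558811 to 1626316), had 88 exons and 16.989 kb of exon sequence. Over replicates 1 to 5 its CPM were 379, 446, 358, 394, and 415 at 15 °C, 923, 1417, 1116, 1116, and 1057 at 20 °C, and 908, 1168, 1323, 756, and 920 at 25 °C. The groups at 20 and 25 °C again overlapped with each other and not with 15 °C. It was 2.82-fold higher at 20 °C (log2 fold change 1.50, SE 0.149, edgeR adjusted p = 7.78e-07) and 2.55-fold higher at 25 °C (1.35, SE 0.148, adjusted p = 1.89e-06) than at 15 °C. The second gene of the pair (1649179 to 1710118) had 65 exons and was the last model on its scaffold. Levels in replicates 1 to 5, as CPM, were 187, 212, 172, 158, and 201 at 15 °C, 285, 431, 403, 367, and 360 at 20 °C, and 262, 334, 404, 226, and 275 at 25 °C. It showed the same order of temperatures at a lower level, 1.98-fold higher at 20 °C (adjusted p = 7.96e-05) and 1.61-fold higher at 25 °C (adjusted p = 0.00149) than at 15 °C.

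**Figure D5:**
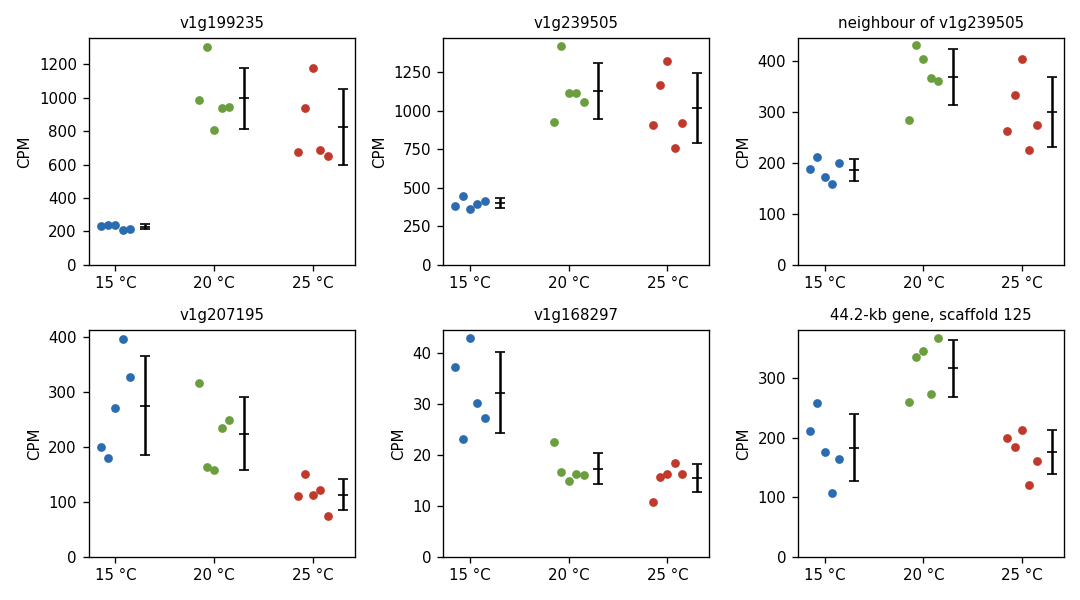
CPM per library of 6 long genes, 5 points per temperature with bars for the mean and SD. The genes of the upper row are low at 15 °C and high at 20 and 25 °C, v1g207195 is lowest at 25 °C, v1g168297 is highest at 15 °C, and the gene on scaffold 125 is high at 20 °C only.

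Genes with a dominant intron were also among those that rose. A gene of 2 exons on scaffold 474 (50275 to 80525, plus strand), whose only intron spanned 29.027 kb, had 34.4 to 48.6 CPM at 15 °C (median 40.4), 63.6 to 89.7 at 20 °C (median 70.5), and 60.2 to 75.6 at 25 °C (median 64.3). It was 1.79-fold higher at 20 °C (edgeR adjusted p = 2.53e-05) and 1.66-fold higher at 25 °C (adjusted p = 7.91e-05). The gene of 3 exons on scaffold 117 with the intron of 42674 bp had 2.90 to 6.82 CPM at 15 °C, 8.60 to 10.9 at 20 °C, and 9.34 to 11.4 at 25 °C. It was 1.80-fold higher at 20 °C (adjusted p = 0.00049) and 1.93-fold higher at 25 °C (adjusted p = 0.000108). In both genes the warmer libraries did not overlap with those at 15 °C.

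A gene of 51 exons on scaffold 115 (478397 to 534779, minus strand) differed in where the rise lay. Its CPM for replicates 1 to 5 were 47.6, 43.6, 39.0, 34.1, and 46.0 at 15 °C, 42.5, 49.9, 50.3, 45.9, and 46.7 at 20 °C, and 67.3, 65.9, 71.2, 51.6, and 69.7 at 25 °C. Only the 25 °C libraries stood apart. The level was 1.55-fold higher at 25 than at 15 °C (edgeR adjusted p = 0.000179) and 1.39-fold higher at 25 than at 20 °C (adjusted p = 0.0131), with no call between 20 and 15 °C (log2 fold change 0.16, adjusted p = 0.344).

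The largest fall was that of NEMVEDRAFT_v1g207195, a gene of 88 exons on scaffold 77 (843092 to 896167, minus strand). In replicates 1 to 5 the CPM were 199, 179, 271, 396, and 327 at 15 °C, 317, 163, 157, 235, and 250 at 20 °C, and 109, 150, 111, 121, and 73.3 at 25 °C. The 25 °C libraries lay below all others, and those at 15 and 20 °C overlapped. It was 2.43-fold lower at 25 than at 15 °C (log2 fold change −1.28, SE 0.245, edgeR adjusted p = 0.000953). It was 1.99-fold lower at 25 than at 20 °C (adjusted p = 0.0333), a call that was lost in 12 alternatives, with adjusted p from 0.0546 to 0.188.

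The second fall, that of NEMVEDRAFT_v1g168297 (44 exons, scaffold 102, 459557 to 498754, plus strand), had another shape. Over replicates 1 to 5 its CPM were 37.3, 23.1, 42.9, 30.3, and 27.3 at 15 °C, 22.5, 16.5, 14.9, 16.2, and 16.1 at 20 °C, and 10.8, 15.6, 16.2, 18.4, and 16.2 at 25 °C. The 15 °C libraries lay above all the others, by the narrow margin of 23.1 against 22.5 CPM. It was 1.83-fold lower at 20 °C (edgeR adjusted p = 0.000944) and 2.07-fold lower at 25 °C (adjusted p = 0.000121) than at 15 °C.

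On scaffold 115, 34.871 kb after the gene of 51 exons that rose at 25 °C, a gene of 21 exons (569651 to 601890, plus strand) fell. Levels in replicates 1 to 5, as CPM, were 35.6, 25.7, 40.9, 31.8, and 27.3 at 15 °C, 15.5, 11.9, 13.5, 15.0, and 12.5 at 20 °C, and 13.1, 15.7, 15.7, 19.4, and 20.5 at 25 °C. The 15 °C libraries stood apart from both other temperatures. This was the largest fall between 15 and 20 °C, 2.32-fold (log2 fold change −1.22, edgeR adjusted p = 4.98e-06), with a 1.89-fold lower level at 25 than at 15 °C (adjusted p = 6.71e-05). The next largest falls between 15 and 25 °C were 1.68-fold in a gene of 52 exons on scaffold 158 (439917 to 475386, minus strand; adjusted p = 0.000173), 1.50-fold in a gene of 35 exons on scaffold 251 (31159 to 62531, minus strand; adjusted p = 4.04e-05), and 1.45-fold in a gene of 55 exons on scaffold 6 (790571 to 839249, minus strand; adjusted p = 0.00121). In these genes the libraries at 25 and 15 °C did not overlap. The gene on scaffold 158 was also 1.47-fold lower at 20 than at 15 °C (adjusted p = 0.00357).

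Among the most highly expressed long genes, the gene of 3 exons on scaffold 86 was 1.49-fold lower at 25 than at 15 °C (edgeR adjusted p = 0.00405), with 36.4 to 60.1 CPM against 54.7 to 87.6, which overlap. The gene with 103 exons on scaffold 222 was 1.30-fold lower (adjusted p = 0.00418), with 245 to 301 CPM at 25 °C and 311 to 386 at 15 °C, which do not. The gene on scaffold 168 with the long untranslated first exon had 25.4 to 60.6 CPM at 15 °C and 16.1 to 32.8 at 20 °C, 1.68-fold lower (adjusted p = 0.0333).

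A gene of 39 exons and 44.2 kb on scaffold 125 (463932 to 508131, plus strand) was called in both steps, in opposite directions. Its CPM for replicates 1 to 5 were 211, 258, 176, 107, and 165 at 15 °C, 259, 336, 346, 274, and 368 at 20 °C, and 200, 185, 213, 121, and 161 at 25 °C. The 20 °C libraries lay above all others, by the narrow margin of 259 against 258 CPM. The level was 1.73-fold higher at 20 than at 15 °C (edgeR adjusted p = 0.00786) and 1.80-fold lower at 25 than at 20 °C (adjusted p = 0.0197), a call lost without replicate 5 at 20 °C (adjusted p = 0.0542) or at 25 °C (0.056). The gene of 56 exons on scaffold 3 also had its highest mean at 20 °C, with 378 to 496 CPM at 15 °C, 625 to 1188 at 20 °C, and 463 to 690 at 25 °C. It was 1.91-fold higher at 20 than at 15 °C (adjusted p = 0.000259) and 1.50-fold lower at 25 than at 20 °C (adjusted p = 0.0378), although the libraries at 20 and 25 °C overlapped. Its mean was 552 CPM at 25 °C against 435 CPM at 15 °C. The gene on scaffold 125 had means of 176 and 183 CPM at these temperatures. A gene of 24 exons on scaffold 59 (456368 to 490158, plus strand) was 1.33-fold lower at 25 than at 20 °C (adjusted p = 0.0296), with 39.0 to 50.6 against 51.6 to 66.0 CPM. That call was lost in 11 alternatives.

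Several of the very long genes changed little. Among the tested long genes in the upper quartile of average level, the smallest changes were those of a gene of 58 exons on scaffold 131 (475566 to 523561, plus strand), the longest gene of all on scaffold 214, and a gene of 26 exons on scaffold 104 (381241 to 412272, plus strand). Their largest absolute log2 fold changes in any comparison were 0.11, 0.13, and 0.15, and the adjusted p ranged from 0.374 to 0.968. The longest gene had 82.0 to 124 CPM at 15 °C, 80.5 to 115 at 20 °C, and 107 to 131 at 25 °C, and the SE of its log2 fold changes was 0.117 to 0.118. A gene of 77 exons on scaffold 239, the fifth longest (213573 to 276248, minus strand), had a log2 fold change of −0.29 at 25 vs 15 °C that was not called (adjusted p = 0.0712), with 141 to 186 CPM against 150 to 216.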

How the data were processed

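The authors deposited raw counts, whole and not normalized, of fragments on each gene model, and a length column that equalled the summed exon length for all 27527 models. The submitters' processing notes name Trimmomatic 0.38, HISAT2 2.1.0, StringTie 2.0, and featureCounts. The study's methods state mapping with strandedness where appropriate and counting at default settings, which for featureCounts use no strand; whether the deposited table was made so is not stated. The study took its genome from Ensembl Metazoa, and no build is named for the deposited models; positions are those of the deposited gene models. The table has 2 count columns for a library; what sets them apart is not stated, and they were taken as runs and summed. Where the annotation names a TACO transcript in place of a JGI gene, the gene is no member here.

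The members and lists were chosen with earlier results of these data known. Groups came from the sample titles. RPKM used the library total, and CPM the total scaled by TMM. All 15 libraries were fitted with edgeR 4.0.16 in R 4.3.3 (TMM, filterByExpr, robust quasi-likelihood F-test), with p-values adjusted over 17818 genes. Alternatives used DESeq2 1.42.0, limma-voom (limma 3.58.1), the upper quartile in place of TMM, omission of the filter, a minimum of 10 counts per library, a log2 fold change of 1, the 10 libraries compared, a replicate block, a loess offset on exon length, single runs, thinning to the lowest total, each library left out, and other membership rules. The fits were tested on simulated data. Tables were made with pandas 2.3.3, numpy 2.4.6, and scipy 1.17.1 under Python 3.11.15, and plots with matplotlib 3.10.9.

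The named genes were the 5 of largest span, the 3 with the longest intron, the 5 of highest mean RPKM, the 6 largest rises and 6 largest falls for 25 vs 15 °C and the 3 each for the other comparisons (called, average log2 CPM of at least 0, no overlap between libraries), and the 3 with the smallest largest change in the upper quartile by level. The gene on scaffold 168 and the gene of 4 exons beside v1g199235 were chosen after their values were seen. Identifiers are printed for the 2 largest rises and falls only. A planned grouping by protein role was not made, since 0 identifiers matched a name, and sequences were not used here. Limits from counts of 0 cover counting error only.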

Additional observations from a re-analysis of the deposited data

Results flagged for a closer look

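Single libraries stood apart from the other 4 of their temperature in 10 of 90 groups of 5 libraries among the named genes (a gap to the nearest library of over 0.71 of the group's range). About 1 in 20, or 4.5, would be flagged by chance among independent groups. These groups share the same 15 libraries, and some genes were named for a lack of overlap, so 10 against 4.5 is not a test. At 15 °C, replicate 4 was low for the gene of 103 exons on scaffold 222, with 311 CPM against 364 to 386 in the others, and for the gene of 77 exons on scaffold 239, with 150 CPM against 209 to 216. Replicate 3 was the only 15 °C library with a count for the second longest gene, on scaffold 15, at 0.246 RPKM from 1 count, against 0 in the others. At 20 °C, replicate 1 was low for the longest gene, with 80.5 CPM against 106 to 115, and for the gene on scaffold 239, with 134 CPM against 175 to 183. It was high for v1g168297, with 22.5 CPM against 14.9 to 16.5. Replicate 3 at 20 °C was high for the gene of 35 exons on scaffold 251, with 41.4 CPM against 36.3 to 37.2. At 25 °C, replicate 4 was low for the gene of 51 exons on scaffold 115, with 51.6 CPM against 65.9 to 71.2, and for the gene of 55 exons on scaffold 6, with 110 CPM against 126 to 130. Replicate 2 at 25 °C had 0.311 RPKM, from 1 count, for the gene with the longest intron, on scaffold 30, against 2.03 to 2.46.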

How the results depend on the processing

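No rise or fall for which a gene was named, and no median over the long genes, reversed direction under any alternative. This does not cover the genes named for the smallest changes, whose changes were near 0. With the loess offset the median over all genes tested went from 0.0018 to −0.0206 for 20 vs 15 °C and from −0.0083 to 0.0296 for 25 vs 20 °C, that of genes under 5 kb from 0.04 to −0.0071 for 20 vs 15 °C, and that of genes of 10 to 30 kb went from −0.03 to 0.0062 for 25 vs 20 °C. The counts of long genes called for 25 vs 15, 20 vs 15, and 25 vs 20 °C were 37, 21, and 8, and they were 104, 61, and 15 with a span limit of 20 kb, 7, 3, and 2 with 50 kb, and 4, 3, and 0 at a log2 fold change of 1 in either direction. For 25 vs 20 °C the count was 4 with the loess offset on exon length, 5 with that offset and the replicate block, 4 in run 2 alone, and 4 after thinning to the lowest total. The shares of all genes tested in these 4 fits were 3.59%, 3.91%, 2.73%, and 2.31%, in the same order. With the offset and the block the median log2 fold change for 25 vs 15 °C was −0.046. The cause of these differences was not tested. With each library left out in turn the counts were 30 to 43, 17 to 29, and 2 to 6. The shares of all genes tested were 26.1% to 34.3%, 15.2% to 20.6%, and 2.23% to 3.26%. The median changes of the long genes were −0.18 to −0.11, −0.12 to −0.05, and −0.08 to −0.05.

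Same-numbered libraries of different temperatures deviated together weakly at most (15 pairs, correlations −0.089 to 0.286, mean 0.089 against −0.022 for other pairs). Of these, 6 were over 0.1, among them all 3 pairs of replicate 2, and since not every pair was, the numbers were not taken as a pairing. A replicate block gave 41, 22, and 8 calls, beside 33.1%, 19.9%, and 4.15% of all genes tested.

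The number of long genes expressed was 113.4 in run 1 and 111.7 in run 2 alone, 111.3 after thinning, 103.2 with at least 10 counts, 326.1 at 20 kb, 19.1 at 50 kb, 118.2 with opposite-strand overlap kept, 110.2 with same-strand overlap left out, and 84.1 with dominant introns left out. The median was 10.99 RPKM over genes with at least 10 counts and 10.5 without dominant introns. The share of counts was 3.79% at 20 kb, 0.287% at 50 kb, and 0.799% without the 3 largest rises between 20 and 15 °C. With a library left out, the ranges were 115.1 to 115.4 genes, 8.25 to 8.53 RPKM, and 0.967% to 1.002%. The depth of the lowest library allows 0.851 CPM at a count of 0.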

Other observations

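In every library the first of the 2 count columns held a larger share of the counts on long genes than of all counts, from 56.4% to 76.0% against 52.9% to 72.6%. The counts of the 2 columns of a library differed by more than sampling noise, with a dispersion of 5.11 to 12.6 over genes, where 1 is expected of a random split.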
